A study of Mus musculus with 4 samples.

Results

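The resident macrophage genes Lyve1, Cd163, Mrc1, F13a1, Folr2, Vsig4, Cbr2 and Retnla were followed in nuclei of mouse heart ventricles. They were taken by symbol from the gene list of the count matrices. All 8 were found, each on 1 row, among 25906 genes, under the identifiers ENSMUSG00000030787 (Lyve1), ENSMUSG00000008845 (Cd163), ENSMUSG00000026712 (Mrc1), ENSMUSG00000039109 (F13a1), ENSMUSG00000032725 (Folr2), ENSMUSG00000044206 (Vsig4), ENSMUSG00000025150 (Cbr2) and ENSMUSG00000061100 (Retnla). The study asked how voluntary wheel running alters the cells of the heart before and after myocardial infarction. Wild-type C57BL/6J mice of both sexes, 8 weeks old at the start, had running wheels for 16 weeks or stayed sedentary. There were 4 libraries of single-nucleus RNA: running infarct, from runners with an infarct; sedentary infarct, from sedentary mice with an infarct; running, from runners without infarct; and sedentary, from sedentary mice without infarct. Each infarct library pooled 4 hearts taken 2 weeks after the surgery, and each of the other libraries pooled 2 hearts. Nuclei of frozen ventricles were stained with Hoechst, sorted and loaded on a 10x Genomics 3′ kit. Each group was 1 library and nothing in the files tells the pooled hearts apart, so no p-values are given. All intervals are 95% intervals and cover counting error only.

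Resident macrophages live in the heart muscle from before birth, renew themselves locally and clear debris from cardiomyocytes and vessels. After an infarct, monocytes that carry the chemokine receptor Ccr2 enter the muscle and become macrophages beside them. Lyve1 codes for a hyaluronan receptor that is also the classic marker of lymphatic vessels, so its signal has more than 1 source in the heart. Cd163 is the scavenger receptor for haemoglobin-haptoglobin complexes, and Mrc1 is the mannose receptor CD206. Vsig4 is a complement receptor, and Folr2 is a folate receptor of macrophages. F13a1 codes for the A subunit of coagulation factor XIII, Cbr2 for a carbonyl reductase, and Retnla for a secreted protein of alternatively activated macrophages.

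The bases just upstream of a transcript start carry part of the information that sets in which cells a gene is read. Windows of 250 bases upstream of the start were taken from RefSeq on GRCm38.p6 for 7 members, with 2 windows each for F13a1 and Folr2. No such window was used for Lyve1. The counts were made on GRCm39, so these coordinates belong to the RefSeq build. The windows are shown for all members that had one and enough UMIs to be compared in macrophage-like nuclei, which leaves out Retnla. Capitals mark the PU box GAGGAA, the core bound by ETS factors such as PU.1, and the MAF motif TGCTGA, both read on either strand (TTCCTC is the reverse complement of the PU box).
Mrc1, chr2:14229164-14229413, plus strand: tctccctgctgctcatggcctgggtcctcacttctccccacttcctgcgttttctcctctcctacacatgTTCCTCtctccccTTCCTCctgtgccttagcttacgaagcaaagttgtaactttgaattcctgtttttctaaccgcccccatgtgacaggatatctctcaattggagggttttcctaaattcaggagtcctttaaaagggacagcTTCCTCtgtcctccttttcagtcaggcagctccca
F13a1, window 1, chr13:37050245-37050494, minus strand: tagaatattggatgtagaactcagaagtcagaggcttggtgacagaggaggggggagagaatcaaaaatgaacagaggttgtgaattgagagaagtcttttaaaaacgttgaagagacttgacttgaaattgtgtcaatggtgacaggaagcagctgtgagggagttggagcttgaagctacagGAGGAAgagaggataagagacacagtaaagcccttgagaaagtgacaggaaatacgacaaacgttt
F13a1, window 2, chr13:37049214-37049463, minus strand: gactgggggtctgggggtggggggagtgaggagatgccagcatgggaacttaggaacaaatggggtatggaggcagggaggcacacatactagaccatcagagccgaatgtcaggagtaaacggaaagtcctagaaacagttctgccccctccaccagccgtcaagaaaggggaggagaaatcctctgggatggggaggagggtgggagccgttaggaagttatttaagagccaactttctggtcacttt
Vsig4, chrX:96293439-96293688, minus strand: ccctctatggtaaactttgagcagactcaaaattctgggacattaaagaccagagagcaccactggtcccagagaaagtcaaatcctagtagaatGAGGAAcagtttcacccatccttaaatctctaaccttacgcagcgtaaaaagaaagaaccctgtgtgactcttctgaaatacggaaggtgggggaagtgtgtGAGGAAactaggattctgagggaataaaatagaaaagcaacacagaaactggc
Cbr2, chr11:120732022-120732271, minus strand: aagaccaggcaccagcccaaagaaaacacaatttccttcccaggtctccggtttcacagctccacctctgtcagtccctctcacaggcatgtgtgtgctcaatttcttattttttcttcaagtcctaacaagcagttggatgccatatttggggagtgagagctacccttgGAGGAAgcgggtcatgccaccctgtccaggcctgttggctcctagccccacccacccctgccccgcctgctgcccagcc
Cd163, chr6:124304401-124304650, plus strand: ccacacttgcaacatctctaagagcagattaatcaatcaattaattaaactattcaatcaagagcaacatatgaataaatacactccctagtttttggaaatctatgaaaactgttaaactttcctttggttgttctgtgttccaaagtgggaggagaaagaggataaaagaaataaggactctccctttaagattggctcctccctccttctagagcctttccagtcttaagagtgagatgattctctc
Folr2, window 1, chr7:101857191-101857440, minus strand: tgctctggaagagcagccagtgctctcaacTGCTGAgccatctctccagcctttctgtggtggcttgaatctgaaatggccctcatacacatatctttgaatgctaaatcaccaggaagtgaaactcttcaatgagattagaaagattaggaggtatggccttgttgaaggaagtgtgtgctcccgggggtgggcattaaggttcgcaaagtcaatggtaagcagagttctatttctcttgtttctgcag
Folr2, window 2, chr7:101845332-101845581, minus strand: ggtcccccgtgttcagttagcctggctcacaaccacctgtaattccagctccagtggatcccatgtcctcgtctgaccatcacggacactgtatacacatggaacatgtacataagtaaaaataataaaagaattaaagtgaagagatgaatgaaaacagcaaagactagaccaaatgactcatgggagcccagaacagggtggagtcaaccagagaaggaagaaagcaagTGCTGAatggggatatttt
By the position of its first letter, counted back from the base before the start (position -1), the Mrc1 window held the PU box at -180, -167 and -35, all on the reverse strand. The Vsig4 window held it at -155 and -53, window 1 of F13a1 at -66 and the Cbr2 window at -79, all on the gene's strand. Window 2 of F13a1, both windows of Folr2 and the Cd163 window held none. With the Retnla window, 5 of 9 member windows held at least 1 PU box, and 23.3% of 32851 RefSeq windows of the same length did. The MAF motif TGCTGA was in 3 of 9 windows, those of Folr2 at -220 and -19 and that of Retnla, and in 16.1% of all windows. No match of either motif overlapped the other in a member window. These are matches of letters and were not tested as binding sites.

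The libraries held 3243 to 6253 barcodes and 26170995 to 37533722 UMIs, unique molecules counted per gene. After filters, 18781 nuclei were clustered without the 8 members and named from fixed markers. Macrophage-like nuclei numbered 652 in the running infarct, 237 in the sedentary infarct, 196 in the running and 146 in the sedentary library. They made up 13.8% (12.9 to 14.9), 7.59% (6.68 to 8.57), 3.36% (2.91 to 3.86) and 2.85% (2.42 to 3.35) of nuclei in the same order. Of 18 macrophage markers, 17 stood more than 5 times above their level in cardiomyocyte-like nuclei in every library, as did 8 of 9 lymphatic markers in lymphatic endothelial-like nuclei. The class did not hold all macrophage RNA. A cluster of 773 nuclei with a median of 14991 UMIs was led by Ifi202b and C5ar1, a complement receptor gene of myeloid cells. Its macrophage markers stood at 2028 to 4864 CPM, against 10759 to 14211 CPM in the macrophage-like class (CPM, UMIs per 1000000 UMIs). Its best marker match was cycling cells, with a score of 1.78 beside 1.76 for macrophages, but its 10 leading genes held the macrophage marker Adgre1 and no cycling marker, so it was left unnamed. Its median doublet score was 0.104. It held 47.3, 52.8, 23.2 and 18.2% of the UMIs of 17 macrophage markers in the running infarct, sedentary infarct, running and sedentary libraries, and 2 clusters called mixed for their doublet scores held 3.53, 3.74, 33.9 and 39.3%. The macrophage-like class held 32.8, 24.9, 19.7 and 19.1%. Results in the class are therefore given again over all 3 sets of nuclei.

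Within macrophage-like nuclei the members stood lower in both infarct libraries, Lyve1 by the widest ratio in either comparison among members with at least 100 UMIs. Levels are CPM over the UMIs of the class in a library, without mitochondrially encoded genes, and fewer nuclei with a gene cannot be told apart from less RNA per nucleus in such a level. Lyve1 was at 42.4 CPM (33.0 to 53.7, from 69 UMIs) in the running infarct library and 80.7 (62.4 to 103, from 66) in the sedentary infarct library. It was at 220 CPM (182 to 262, from 121) in the running and 215 (173 to 264, from 91) in the sedentary library. The order was running infarct, sedentary infarct, then both libraries without infarct, whose intervals overlapped almost wholly. The scavenger receptor gene Cd163 followed the same order, with 269, 419, 792 and 902 CPM in the running infarct, sedentary infarct, running and sedentary libraries. The complement receptor gene Vsig4 had 133, 171, 321 and 361 CPM in these libraries, and the reductase gene Cbr2 had 105, 155, 187 and 269. F13a1 had 2147, 3140, 4272 and 4828 CPM. All 4 of these genes were lowest in the running infarct library and highest in the sedentary library. Mrc1 departed from that order, with 1755, 1553, 2271 and 2495 CPM, so that the sedentary infarct library was lowest. Folr2 had 49.8, 85.6, 67.2 and 128 CPM from 37 to 81 UMIs, and its infarct and non-infarct libraries overlapped. Retnla had 5, 1, 6 and 2 UMIs in these nuclei, too few for any comparison, and 114 UMIs over all barcodes of the series.

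**Figure D1:**
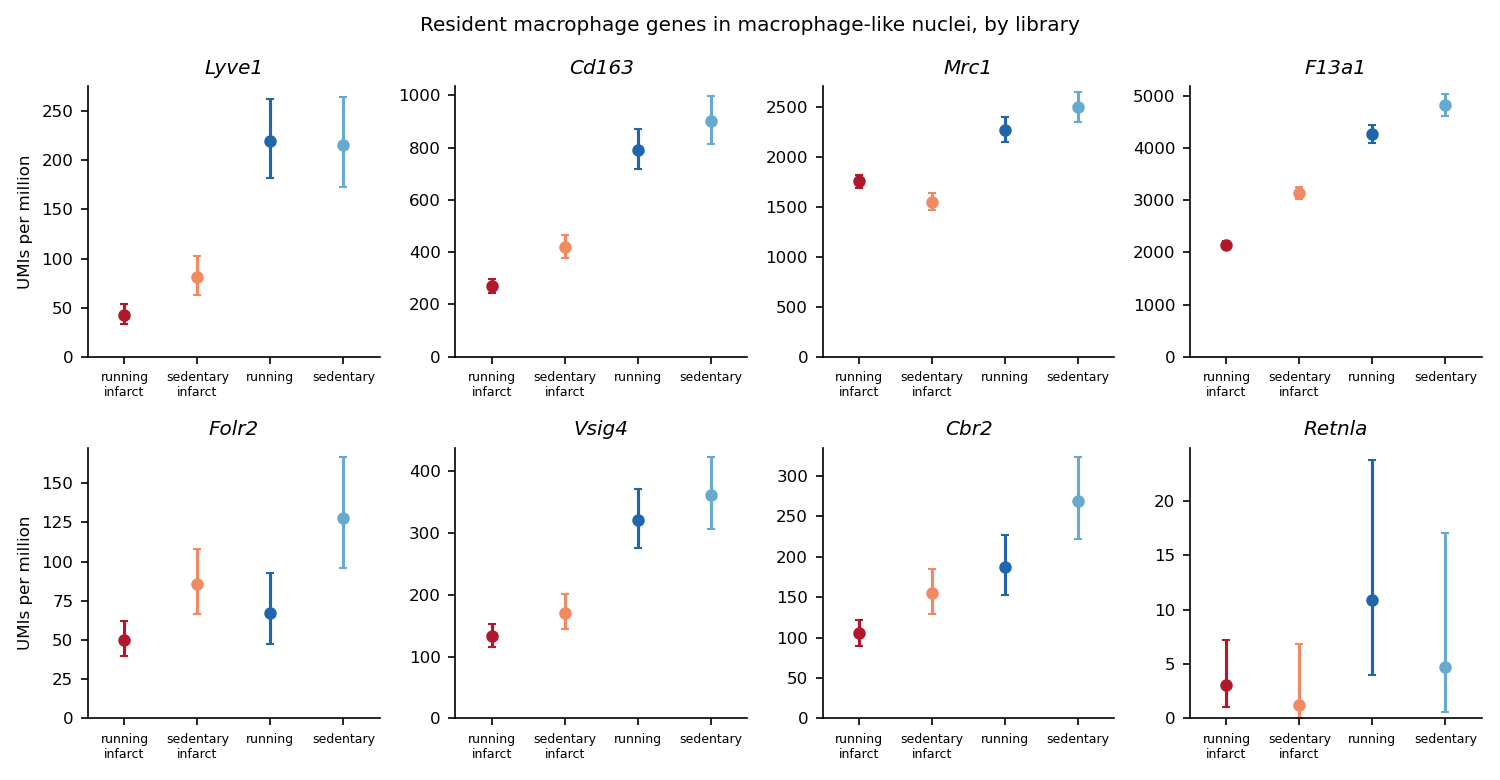
Levels of the 8 members in macrophage-like nuclei of each library, as CPM of the class on linear axes from 0. Points are 1 library each and bars are exact Poisson 95% intervals. Lyve1 stood at 42.4 and 80.7 in the infarct libraries and at 220 and 215 in the others, and Retnla rests on 1 to 6 UMIs a library.

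In runners, 5 of the 7 members with at least 100 UMIs over both libraries were at least 1.5-fold lower with infarct, and 0 were higher. By the same rule 7% of 4812 genes were lower and 8.37% higher. The median log2 ratio of the 7 was -0.99, beside 0.01 over all genes. Lyve1 was 5.18-fold lower (3.82 to 7.07), Cd163 2.94-fold (2.57 to 3.36) and Vsig4 2.41-fold (1.96 to 2.95). F13a1 was 1.99-fold lower (1.89 to 2.10). These 4 genes had intervals that lay wholly beyond 1.5-fold. Cbr2 was 1.78-fold lower (1.38 to 2.29), with an interval that reached below it. Mrc1, 1.29-fold lower (1.21 to 1.38), and Folr2, 1.35-fold lower (0.889 to 2.01), did not reach 1.5-fold. The Lyve1 log2 ratio was between -2.67 and -1.81 under all 14 alternatives run. Vsig4 was the exception in direction: in nuclei with at most 5% mitochondrial UMIs its log2 ratio was 0.049. That filter kept 6651 of 18781 nuclei. The median mitochondrial share of macrophage-like nuclei was 4.52% in the running infarct and 8.98% in the running library, so the filter fell harder on the latter.

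In sedentary mice, 6 of 7 measured members were at least 1.5-fold lower with infarct and 0 higher, beside 6.21% of 3154 genes lower and 8.91% higher. The median log2 ratio was -0.79, beside 0.02 over all genes. Lyve1 was 2.66-fold lower (1.92 to 3.71), Cd163 2.15-fold (1.85 to 2.50) and Vsig4 2.11-fold (1.67 to 2.67). These 3 receptor genes had intervals wholly beyond 1.5-fold. Cbr2 was 1.73-fold lower (1.33 to 2.25), Mrc1 1.61-fold (1.48 to 1.74) and F13a1 1.54-fold (1.45 to 1.63). Folr2, 1.49-fold lower (1.02 to 2.16), fell just short. This comparison leaned on how nuclei were assigned. With each library clustered alone only 1 member was at least 1.5-fold lower, the Lyve1 log2 ratio was -0.84 instead of -1.41, and Mrc1, F13a1, Folr2 and Cbr2 turned to 0.13, 0.30, 0.35 and 0.18. Where only nuclei with 2 or more Y-linked UMIs were taken (Y-positive, over 4 genes), the Lyve1 log2 ratio was -0.80 and 2 members were lower. The share over all genes is not given for these settings, so their counts cannot be read as particular to the members.

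Other measures moved with the infarct libraries. Y-positive nuclei were 14.7 and 15.2% of macrophage-like nuclei in the running infarct and sedentary infarct libraries and 29.6 and 22.6% in the running and sedentary libraries. In runners the Lyve1 log2 ratio with infarct was -2.07 among Y-positive nuclei, and among nuclei with no Y-linked UMI it was -2.42. The 12 cardiomyocyte markers, a measure of free RNA in these nuclei, summed to 3025, 3252, 4593 and 4543 CPM in the running infarct, sedentary infarct, running and sedentary libraries. The 12 fibroblast markers summed to 1519, 2227, 1797 and 1646 CPM, and all were detected. The part of free RNA in the member ratios was not tested. Infarct and the number of pooled hearts went together in these libraries and cannot be told apart, and the labels do not say whether mice without infarct had sham surgery.

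Between the 2 infarct libraries, 3 of 7 measured members were at least 1.5-fold lower in the running infarct library and 0 higher. By the same rule 3.63% of 5227 genes were lower and 2.85% higher. Lyve1 was 1.90-fold lower (1.34 to 2.71), Folr2 1.72-fold (1.23 to 2.40) and Cd163 1.56-fold (1.35 to 1.80). All 3 intervals reached below 1.5-fold. Cbr2 was 1.48-fold lower (1.17 to 1.87), F13a1 1.46-fold (1.39 to 1.54) and Vsig4 1.28-fold (1.03 to 1.59). Mrc1 was 1.13-fold higher (1.06 to 1.21), so the mannose receptor gene did not follow the other members here. Once the high-depth cluster was counted as macrophage-like, 0 members passed 1.5-fold and the Lyve1 log2 ratio was -0.29 instead of -0.93. The share over all genes is not given for that setting. The macrophage markers of that cluster stood at 2347 CPM in the running infarct and 2028 CPM in the sedentary infarct library. In the macrophage-like class they stood at 11525 and 10759 CPM.

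Between the libraries without infarct the measured members lay within 1.5-fold of each other: 0 of 6 were lower and 0 higher, beside 2.57% of 2486 genes lower and 3.62% higher. Lyve1 was 1.02-fold higher in the running library, with an interval of 0.772 to 1.36. For Cd163 the running over sedentary ratio was 0.877 (0.763 to 1.01), for Mrc1 0.910 (0.838 to 0.989), for F13a1 0.885 (0.833 to 0.939) and for Vsig4 0.889 (0.712 to 1.11). Cbr2 had the lowest ratio of the 6, at 0.694 (0.527 to 0.915). Folr2, with 91 UMIs under the count rule, had 67.2 CPM in the running and 128 CPM in the sedentary library. With each library clustered alone 4 members, Lyve1, Mrc1, F13a1 and Vsig4, were instead at least 1.5-fold higher in the running library, with log2 ratios of 0.63, 0.64, 0.67 and 0.74. No share over all genes is given for that clustering, so the count cannot be read as particular to the members. In nuclei with at most 5% mitochondrial UMIs Vsig4 was at -1.61 on the log2 scale. Before that filter the median mitochondrial share of macrophage-like nuclei was 8.98% in the running and 5.31% in the sedentary library. These 4 comparisons share libraries in pairs and are not independent of each other.

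**Figure D2:**
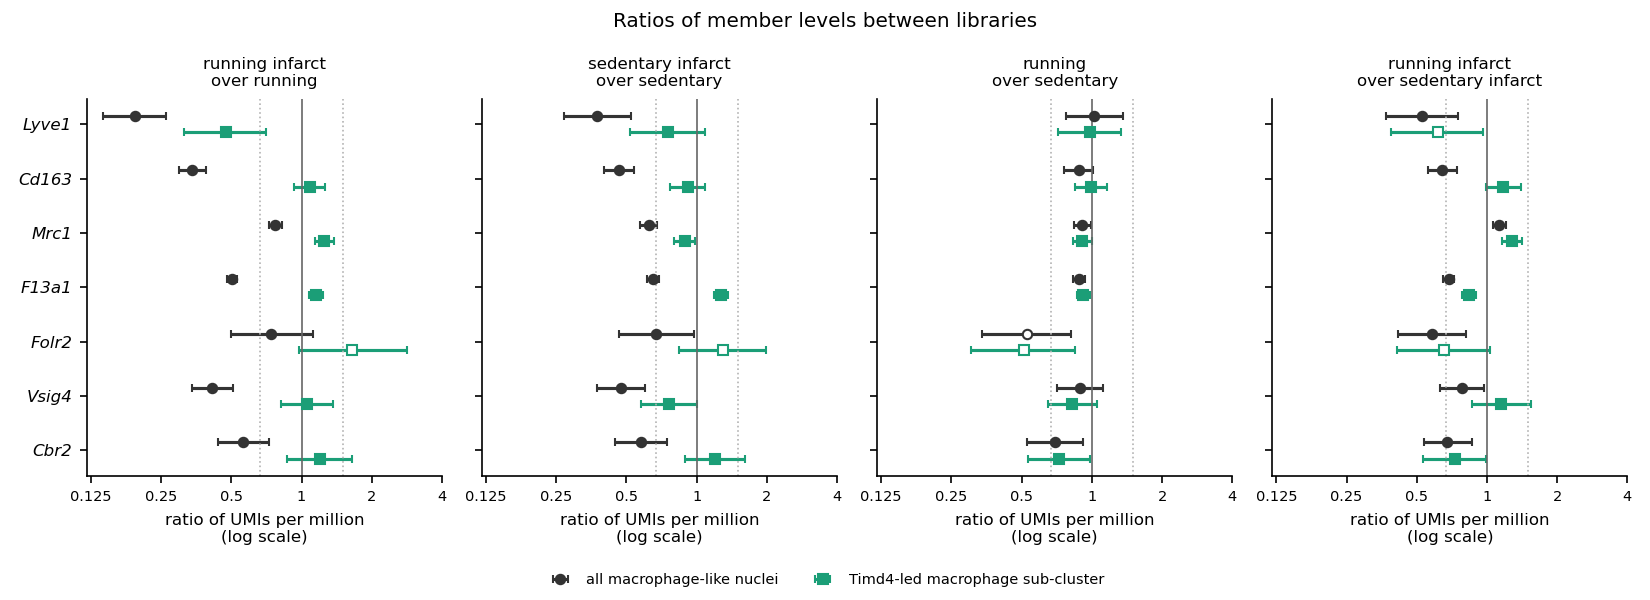
Ratios of member levels in 4 comparisons between libraries, on log axes with exact 95% intervals of counting error. Circles are all macrophage-like nuclei and squares the Timd4-led sub-cluster. Open symbols rest on fewer than 100 UMIs, and dotted lines mark 1.5-fold. Lyve1 is the farthest left in both infarct comparisons over all macrophage-like nuclei, at 0.193 in runners and 0.376 in sedentary mice.

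Lyve1 was also lower with infarct once the nuclei left out of the class were added. Over macrophage-like, high-depth and mixed nuclei together, members were counted per UMI of 17 macrophage markers instead of per UMI of all genes. Lyve1 then had 6.02 UMIs per 1000 marker UMIs in the running infarct and 9.31 in the sedentary infarct library, against 21.1 in the running and 20.1 in the sedentary library. The Lyve1 ratio with infarct was 0.285 (0.247 to 0.328) in runners and 0.463 (0.397 to 0.538) in sedentary mice. On the same scale the macrophage-like class alone gave 0.227 (0.166 to 0.307) and 0.496 (0.356 to 0.688). Cd163 was at 0.415 and 0.600, and Vsig4 at 0.549 and 0.758, for runners and sedentary mice. Mrc1, at 0.830 and 0.868, moved little on this scale. F13a1, at 0.598 and 0.865, and Cbr2, at 0.598 and 0.959, were near even in sedentary mice. These ratios also carry changes in the denominator, since the marker Rbpj was itself lower with infarct. In macrophage-like nuclei Rbpj was at 3679, 2955, 6069 and 5969 CPM in the running infarct, sedentary infarct, running and sedentary libraries. Other classes held marker UMIs too, with Rbpj at 112 to 133 CPM in cardiomyocyte-like nuclei. In the mixed clusters the markers stood at 983, 802, 1323 and 1291 CPM. The running infarct over sedentary infarct ratio was 0.647 (0.546 to 0.767) for Lyve1 and 0.651 (0.597 to 0.710) for Cd163. It was 0.622 for Cbr2, 0.690 for F13a1, 0.699 for Folr2, 0.786 for Vsig4 and 0.970 for Mrc1. For running over sedentary it was 1.05 (0.9302 to 1.18) for Lyve1, and the other 6 measured members lay between 0.856 and 1.08. Lyve1 also comes from lymphatic nuclei, and the mixed clusters held 316 and 284 Lyve1 UMIs in the running and sedentary libraries, beside 920 and 669 UMIs of the lymphatic gene Reln. The high-depth cluster held 197 and 182 Lyve1 UMIs in the running infarct and sedentary infarct libraries, beside 704 and 348 of Reln. Lyve1 on this scale is therefore a sum over macrophage and lymphatic RNA.

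Lyve1 was checked in lymphatic endothelial-like nuclei, which numbered 123, 76, 268 and 189 in the running infarct, sedentary infarct, running and sedentary libraries. Their Lyve1 level was 197 CPM (160 to 240), 208 (162 to 262), 268 (241 to 298) and 360 (320 to 402) in the same order. The lymphatic endothelial-like level was 4.64 times (3.38 to 6.40) the macrophage-like level in the running infarct library and 2.58 times (1.82 to 3.66) in the sedentary infarct library. It was 1.22 times (0.9904 to 1.52) in the running and 1.67 times (1.32 to 2.14) in the sedentary library. In the running library the levels of the 2 classes did not differ beyond counting error.

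The part of lymphatic RNA in the Lyve1 UMIs of macrophage-like nuclei was estimated from lymphatic genes. If all UMIs of Reln, Mmrn1, Flt4 or Prox1 there had come with Lyve1 in the lymphatic proportion, they would bring 0 to 7.90% of the Lyve1 UMIs observed. Such proportions fell short in cardiomyocyte-like nuclei, which should lack Lyve1. Lyve1 there was 2.93, 3.06, 1.70 and 2.37 times what lymphatic and macrophage RNA would bring in the running infarct, sedentary infarct, running and sedentary libraries. The estimate may therefore be too low. Reln itself had 29, 0, 13 and 4 UMIs in macrophage-like nuclei of the running infarct, sedentary infarct, running and sedentary libraries, and 787, 559, 2733 and 1518 UMIs in lymphatic endothelial-like nuclei. The 9 lymphatic markers summed to 131, 89.3, 238 and 137 CPM in macrophage-like nuclei, with 9, 7, 9 and 9 of them detected, and to 6800, 7003, 7284 and 6729 CPM in their own class. The other way round, the 18 macrophage markers summed to 876, 680, 611 and 552 CPM in lymphatic endothelial-like nuclei. F13a1 had 27, 3, 21 and 9 UMIs there, beside 100, 71, 342 and 304 of Lyve1.

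Lyve1 was also lower with infarct in the lymphatic endothelial-like class. The ratio was 0.734 (0.581 to 0.919) in runners, where 8.77% of 4105 genes were at least 1.5-fold lower and 4.77% higher, and 0.578 (0.440 to 0.751) in sedentary mice. In the sedentary comparison it was 1.73-fold lower (1.33 to 2.27), where 7.75% of 2904 genes were at least 1.5-fold lower and 5.06% higher. The running infarct over running ratio was 0.193 in macrophage-like nuclei, and its interval of 0.142 to 0.262 lay below that of the lymphatic class. In sedentary mice the intervals of the 2 classes overlapped. Running over sedentary was 0.747 (0.638 to 0.874) in lymphatic endothelial-like nuclei, where 2.95% of 4674 genes were lower and 4.02% higher by the same rule. Running infarct over sedentary infarct was 0.947 (0.692 to 1.30), where 3.51% of 2080 genes were lower and 3.75% higher.

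Mrc1 was the other member with a signal in lymphatic endothelial-like nuclei, at 244, 146, 288 and 335 CPM in the running infarct, sedentary infarct, running and sedentary libraries. That is 7.19-fold, 10.6-fold, 7.88-fold and 7.45-fold lower than in macrophage-like nuclei. Its 824 UMIs over the 4 libraries were 20.9 times the 39.4 that macrophage RNA would bring at the proportion of F13a1. Mrc1 is known from lymphatic endothelium of other organs. With infarct it was 2.29-fold lower (1.69 to 3.15) in sedentary mice and 1.18-fold lower (0.960 to 1.46) in runners. Cd163, with 1, 0, 15 and 3 UMIs, and Vsig4, with 2, 1, 6 and 1, were near absent from the class.

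**Figure D3:**
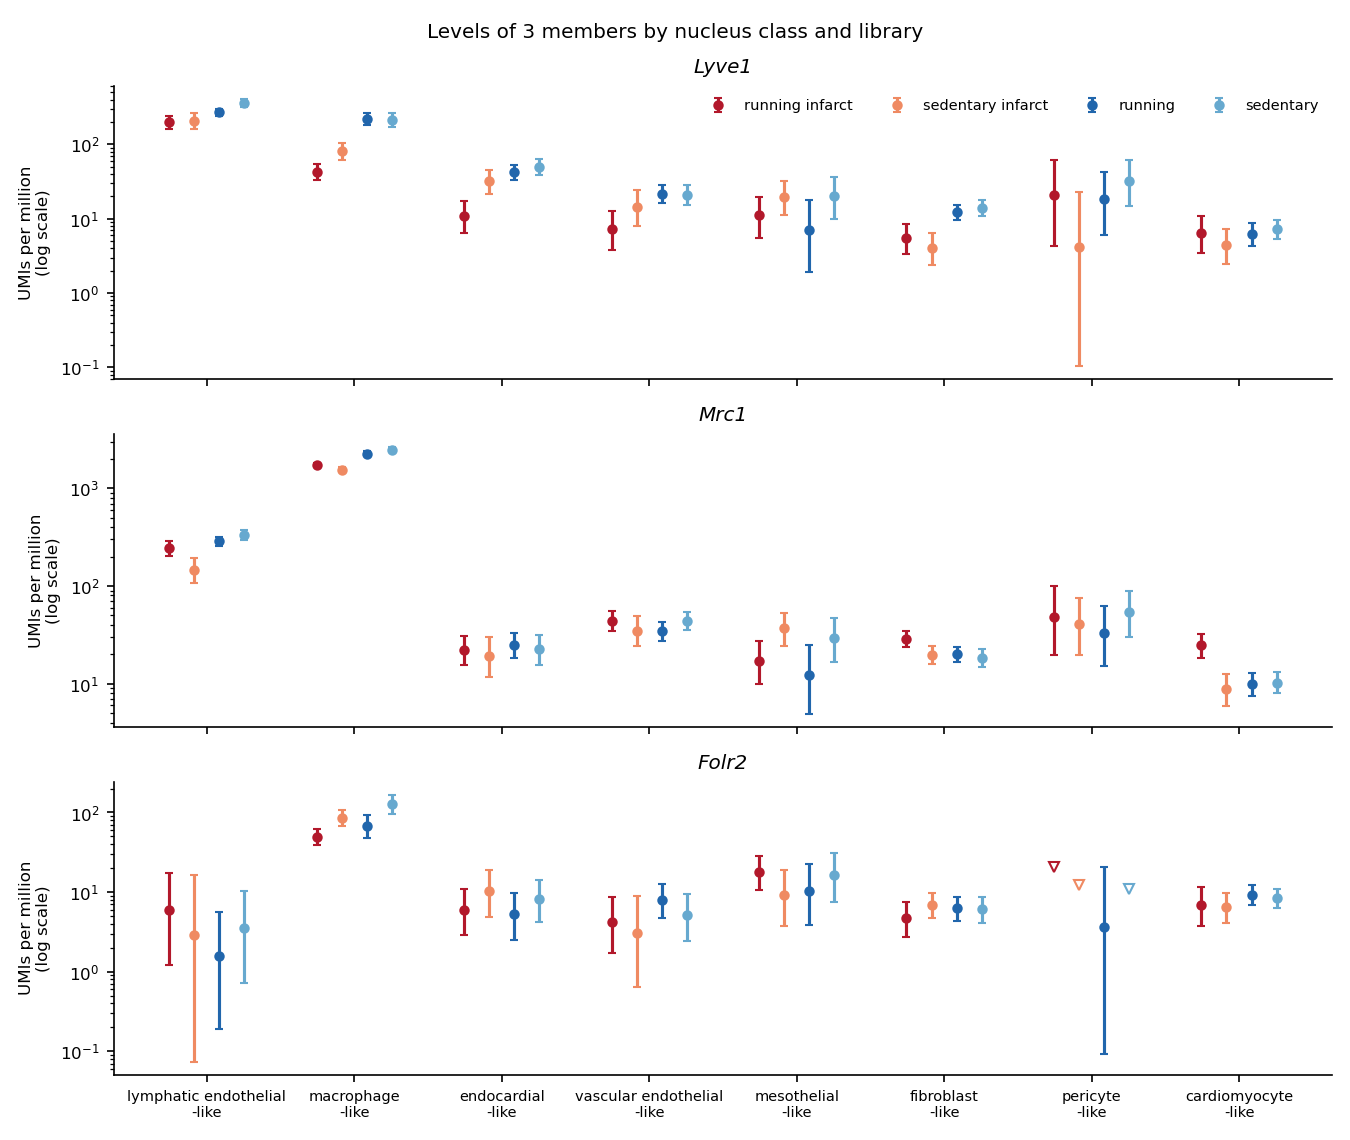
Levels of Lyve1, Mrc1 and Folr2 in 8 nucleus classes and each library, as CPM of the class on log axes with exact Poisson 95% intervals. Open triangles mark the level of 3 UMIs where none was counted. Lyve1 is high in lymphatic endothelial-like and macrophage-like nuclei, Mrc1 is highest in macrophage-like nuclei and next in lymphatic endothelial-like nuclei, and Folr2 is high in macrophage-like nuclei.

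The share of nuclei with a Lyve1 UMI was lower in the infarct libraries too. At counts this low the share follows the mean level. It cannot tell fewer nuclei with Lyve1 RNA apart from less RNA per nucleus. Nuclei were thinned to 1000 UMIs each, which left out 101, 17, 23 and 18 shallower macrophage-like nuclei of the running infarct, sedentary infarct, running and sedentary libraries. A Lyve1 UMI was then found in 2.90% (1.67 to 4.67) of macrophage-like nuclei in the running infarct and 6.36% (3.52 to 10.4) in the sedentary infarct library. The share was 20.8% (15.0 to 27.6) in the running and 17.97% (11.7 to 25.7) in the sedentary library. Before thinning the shares were 7.06, 15.2, 35.7 and 38.4%. In cardiomyocyte-like nuclei, which should lack Lyve1, the thinned shares were 1.91% (0.704 to 4.11), 0.575, 1.10 and 1.18% in the same order. The running infarct share among macrophage-like nuclei thus overlapped this background. Median depths before thinning were 2206, 2975, 2913 and 2694 UMIs in macrophage-like and 2685, 9462, 8443 and 8414 UMIs in cardiomyocyte-like nuclei. In lymphatic endothelial-like nuclei the thinned shares were 17.2, 21.6, 24.1 and 27.0%. For Mrc1 the thinned share of macrophage-like nuclei was 55.4, 57.7, 70.5 and 73.4%, against 1.91, 0.862, 0.943 and 0.917% of cardiomyocyte-like nuclei.

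**Figure D4:**
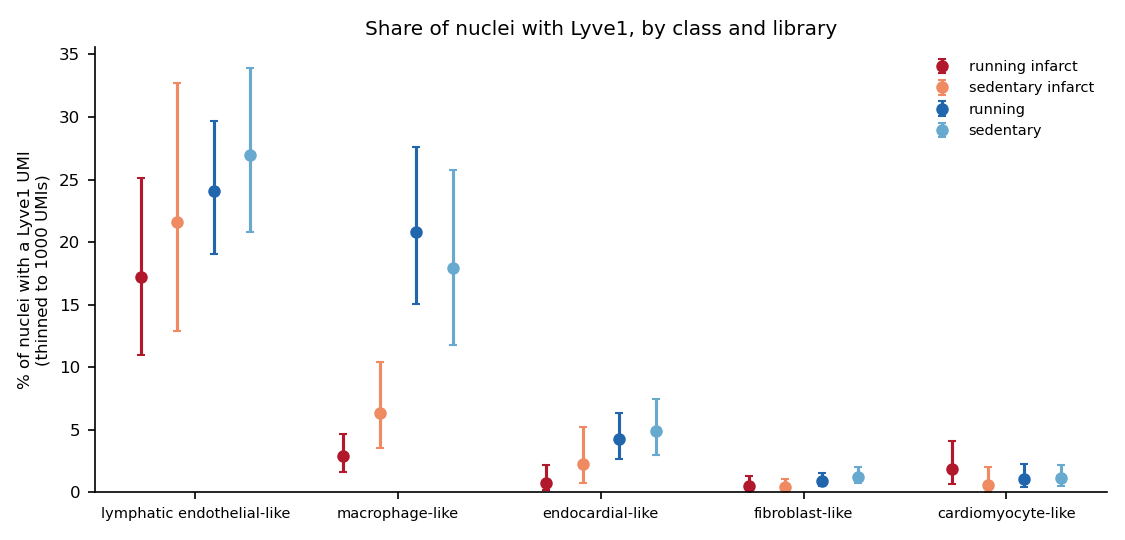
Share of nuclei with at least 1 Lyve1 UMI after thinning to 1000 UMIs, by class and library, with exact Clopper-Pearson 95% intervals. Macrophage-like nuclei stand at 2.90 and 6.36% in the infarct libraries and at 20.8 and 17.97% in the others, and lymphatic endothelial-like nuclei at 17.2 to 27.0%.

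The members also occurred together in fewer macrophage-like nuclei of the infarct libraries. At 1000 UMIs a nucleus, a mean of 1.34, 1.69, 2.49 and 2.73 of the 8 members had a UMI in the running infarct, sedentary infarct, running and sedentary libraries. No member was seen in 32.5% and 25% of nuclei of the running infarct and sedentary infarct libraries, and in 6.94% and 3.13% of those of the running and sedentary libraries. Cardiomyocyte-like nuclei held a mean of 0.121, 0.0345, 0.0597 and 0.0537 members.

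The macrophage-like class held different kinds of nuclei in different libraries. Clustered again without the members, it split into 6 sub-clusters, named here by a leading gene. Nuclei led by Timd4, the phosphatidylserine receptor gene of self-renewing resident macrophages, numbered 78 of 652 in the running infarct, 66 of 237 in the sedentary infarct, 106 of 196 in the running and 88 of 146 in the sedentary library. Nuclei led by Gpnmb, which codes for a membrane protein of phagocytes loaded with lipid, numbered 217, 54, 3 and 1 in these libraries. Nuclei led by Ccr2, the monocyte chemokine receptor gene, numbered 71, 32, 8 and 2. Their leading genes also held the dendritic cell marker Flt3, at 128 CPM beside 32.2 CPM or less in the other sub-clusters. Most nuclei of the sedentary and running libraries thus came from the Timd4-led sub-cluster, and most of those of the infarct libraries from others. A P3h2-led sub-cluster of low depth, with a median of 1140 UMIs, held 226, 56, 56 and 40 nuclei. A Tenm3-led sub-cluster with fibroblast genes and the highest median doublet score, 0.0965, held 48, 26, 21 and 13.

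Inside the Timd4-led sub-cluster most members with enough UMIs stood level between the libraries. Cd163 was at 1077, 917, 995 and 1002 CPM in the running infarct, sedentary infarct, running and sedentary libraries. F13a1 was at 5978, 7149, 5175 and 5625 CPM, Vsig4 at 400, 348, 378 and 458, and Cbr2 at 273, 375, 228 and 314. Mrc1 was at 3304, 2577, 2640 and 2902 CPM. None of these 5 genes was 1.5-fold apart in any of the 4 comparisons. Folr2 did not stand level, but had too few UMIs for the count rule. It was at 124, 190, 75.0 and 147 CPM in the same library order, from 35, 48, 27 and 44 UMIs. Of all genes, 3.74% of 1633 were lower and 2.94% higher between the running and sedentary libraries, and 3.06% of 1273 were lower and 3.3% higher between the running infarct and sedentary infarct libraries. Lyve1 was at 124 CPM in the running infarct, 202 in the sedentary infarct, 261 in the running and 267 in the sedentary library, from 35, 51, 94 and 80 UMIs. In runners Lyve1 alone of 6 measured members was at least 1.5-fold lower with infarct, at 2.11-fold (1.42 to 3.20), where 4.52% of 1547 genes were lower and 5.37% higher. In sedentary mice 0 of 6 passed, with Lyve1 1.33-fold lower (0.922 to 1.92), where 6.04% of 1341 genes were lower and 5.59% higher. Nuclei of this sub-cluster held a mean of 2.94, 2.94, 3 and 3.05 members each at 1000 UMIs.

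Macrophage-like nuclei outside the Timd4-led sub-cluster carried less of the members in the infarct libraries. They were a different mix in each library. P3h2-led nuclei were 226 of 574 in the running infarct, 56 of 171 in the sedentary infarct, 56 of 90 in the running and 40 of 58 in the sedentary library. Timd4 was also among the leading genes of the P3h2-led sub-cluster, at 83.5 CPM, beside 222 CPM in the Timd4-led one. The part of this mix in the levels was not tested. Lyve1 was at 25.3 and 26.6 CPM in the running infarct and sedentary infarct libraries, and at 141 and 88.8 CPM in the running and sedentary libraries, from 11 to 34 UMIs. Cd163 was at 99.7, 197, 408 and 662 CPM in the running infarct, sedentary infarct, running and sedentary libraries. Among them, Gpnmb-led nuclei had 20.4 and 27.6 CPM of Lyve1 in the running infarct and sedentary infarct libraries, and 1552 and 1342 CPM of Mrc1. At 1000 UMIs a nucleus, 36.8% and 33.3% of Gpnmb-led nuclei showed no member. Ccr2-led nuclei had 2 and 1 Lyve1 UMIs and 996 and 588 CPM of Mrc1. The mannose receptor gene was thus present in sub-clusters where Lyve1 was near absent.

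**Figure D5:**
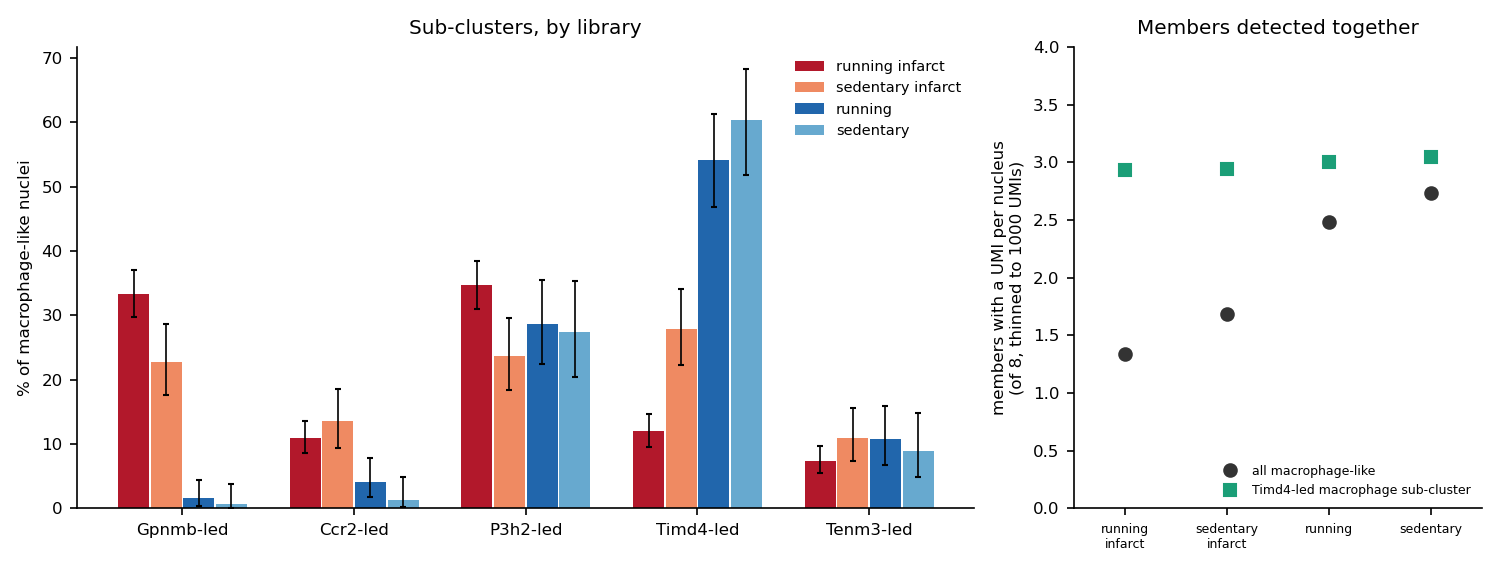
Left, share of macrophage-like nuclei in 5 sub-clusters by library, with exact Clopper-Pearson 95% intervals, on an axis from 0. Right, mean number of the 8 members with a UMI per nucleus at 1000 UMIs, for all macrophage-like nuclei and for the Timd4-led sub-cluster. The class means run from 1.34 to 2.73, and those of the Timd4-led sub-cluster from 2.94 to 3.05.

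Macrophage-like nuclei with a Lyve1 UMI numbered 46, 36, 70 and 56 in the running infarct, sedentary infarct, running and sedentary libraries. Of them 39.1, 66.7, 74.3 and 80.4% lay in the Timd4-led sub-cluster, beside 9.90, 20.9, 42.9 and 47.8% of nuclei without Lyve1. The Lyve1-positive nuclei were deeper, with medians of 3217, 4383, 3256 and 3568 UMIs, beside 2147, 2895, 2393 and 2176 in those without. They carried more Cd163, at 718, 750, 957 and 975 CPM, beside 216, 315, 667 and 824 in nuclei without. F13a1 was at 5165, 6830, 5559 and 5661 CPM, beside 1789, 1977, 3306 and 3933. Vsig4 was at 353, 408, 445 and 542 CPM, beside 107, 96.5, 229 and 167. All 3 genes were higher beside Lyve1 in each of the 4 libraries. The 10 richest nuclei held 46.4, 54.5, 35.5 and 42.9% of the Lyve1 UMIs of the class.

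Other genes of resident and tissue macrophages were a mixed group. In runners, 10 of 25 measured were at least 1.5-fold lower with infarct and 3 higher, with a median log2 ratio of -0.41. In sedentary mice 4 of 20 were lower and 2 higher, with a median of -0.10. Timd4 was 4.62-fold lower (3.44 to 6.25) in runners, the fatty acid transporter gene Cd36 2.52-fold (2.08 to 3.04) and the collectin gene Colec12 2.15-fold (1.85 to 2.50). Tgfbr1, a receptor for TGF-beta, went the other way, 3.40-fold higher (2.87 to 4.05) in runners and 2.78-fold higher (2.27 to 3.43) in sedentary mice. Between the infarct libraries 5 of 25 were lower in running infarct and 0 higher, the fibroblast growth factor receptor gene Fgfr1 by 2.02-fold (1.65 to 2.47). Without infarct 0 of 19 passed in either direction between the running and sedentary libraries, where Dab2, an endocytic adaptor gene, had 1895 and 1921 CPM.

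Genes of monocyte-derived macrophages stood higher with infarct. In runners 4 of 5 measured were higher and 0 lower, and in sedentary mice 3 of 3. Ccr2 was 3.48-fold higher (2.46 to 5.08) in runners and 5.35-fold (3.29 to 9.23) in sedentary mice. The fibronectin gene Fn1 was 5.05-fold higher (3.45 to 7.70) and 4.57-fold (2.76 to 8.05), and Ms4a7 was 3.13-fold (2.63 to 3.74) and 2.43-fold (1.98 to 2.9998), for runners and sedentary mice. Between the infarct libraries 1 of 6 was higher in running infarct and 1 lower, and without infarct 0 of 1 passed. In lipid-associated and phagocytic genes, 3 of 12 were higher in runners and 4 of 11 in sedentary mice, with 0 lower in either. Gpnmb had 238 UMIs in the running infarct against 1 in the running library, and 144 in the sedentary infarct against 0 in the sedentary library. The galectin gene Lgals3 was 2.42-fold higher (1.72 to 3.499) in runners and 4.17-fold (2.55 to 7.24) in sedentary mice. Between the infarct libraries 1 of 13 lipid-associated genes was lower in running infarct, and without infarct 0 of 7 passed.

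Of alternative activation genes, 1 of 5 measured was higher and 1 lower with infarct in runners, and 0 of 3 higher and 2 lower in sedentary mice. Mgl2, a galactose-binding lectin gene, was 2.82-fold lower (2.06 to 3.86) in runners and 2.63-fold (1.90 to 3.68) in sedentary mice. Antigen presentation genes did not pass 1.5-fold with infarct, 0 of 7 in runners and 0 of 6 in sedentary mice. Cd74, the invariant chain gene, had 334 and 441 CPM in the running infarct and running libraries, and 388 and 383 CPM in the sedentary infarct and sedentary libraries. Of 22 structural relatives of the members, 2 or 3 had enough UMIs in each comparison. Cd44, the other hyaluronan receptor gene, had 227 CPM in the running infarct and 238 CPM in the running library, a ratio of 0.956 (0.781 to 1.18), and was 1.54-fold lower (1.16 to 2.03) in sedentary mice. The scavenger receptor gene Stab1 had ratios of 1.10 (0.998 to 1.22) in runners and 0.986 (0.878 to 1.11) in sedentary mice. Mrc2, which codes for the collagen receptor Endo180 of the same family as Mrc1, was 2.13-fold lower (1.52 to 3.01) in running infarct than in sedentary infarct.

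Among 14 measured genes expressed by all macrophages, which also served to name the class, 4 were higher and 1 lower with infarct in runners. The fractalkine receptor gene Cx3cr1 was 2.51-fold higher (1.71 to 3.801) and Cd84 2.27-fold higher (1.84 to 2.83). In sedentary mice 1 of 13 was higher and 0 lower, and Ptprc, the gene of the leukocyte antigen CD45, had 1118 CPM in sedentary infarct nuclei and 1094 CPM in sedentary ones. Of 10 abundant cardiomyocyte genes, which enter these nuclei as free RNA, 4 were lower with infarct in runners and 4 of 8 in sedentary mice, with medians of -0.53 and -0.52 on the log2 scale. Without infarct 0 of 8 passed between the running and sedentary libraries. Of 16 lymphatic genes, Lyve1 and Nrp2 were measured in macrophage-like nuclei. Nrp2 had 253 and 235 CPM in the running infarct and sedentary infarct libraries and 249 and 253 in the running and sedentary libraries, within 1.5-fold in every comparison. Of Y-linked genes, 2 of 3 were lower with infarct in runners and 0 of 1 in sedentary mice. Between the running and sedentary libraries 1 of 1 was higher, with Uty at 254 CPM in the running and 132 CPM in the sedentary library. Between the infarct libraries 2 of 3 were higher in running infarct, Ddx3y by 2.14-fold (1.35 to 3.53). The part of the sex make-up of the pools in the member ratios was not tested beyond the Y-positive and Y-negative nuclei.

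Lyve1 was lower in endocardial-like, vascular endothelial-like, fibroblast-like and cardiomyocyte-like nuclei than in macrophage-like or lymphatic endothelial-like nuclei. The unnamed high-depth cluster had 17.1, 19.8, 90.8 and 94.2 CPM in the running infarct, sedentary infarct, running and sedentary libraries. It held 41.0% of the Lyve1 UMIs of kept nuclei in each infarct library. Macrophage-like nuclei held 14.4% in the running infarct and 14.9% in the sedentary infarct library. Endocardial-like nuclei had 10.8 CPM (6.41 to 17.1) in the running infarct, 31.7 (21.5 to 45.0) in the sedentary infarct, 42.0 (33.3 to 52.3) in the running and 49.9 (39.1 to 62.8) in the sedentary library. Their 18, 31, 80 and 73 UMIs were 4.03, 20.1, 6.25 and 8.88 times the sum that lymphatic and macrophage RNA would bring at the proportions of their own genes. Other classes mostly exceeded that sum as well. The ratio was 2.93, 3.06, 1.70 and 2.37 in cardiomyocyte-like nuclei and 1.41, 4.20, 2.38 and 2.08 in vascular endothelial-like nuclei. In fibroblast-like nuclei it was 1.65, 0.935, 2.19 and 2.11. The thinned share of endocardial-like nuclei with a Lyve1 UMI was 0.761, 2.27, 4.26 and 4.89%. In the running infarct library this was no higher than the 1.91% of cardiomyocyte-like nuclei. Fibroblast-like nuclei had 5.51, 4.00, 12.1 and 14.0 CPM and vascular endothelial-like nuclei 7.25, 14.4, 21.8 and 21.0 CPM. Cardiomyocyte-like nuclei had 6.42, 4.40, 6.19 and 7.19 CPM, and their intervals all overlapped.

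Folr2 had a floor in other classes that free macrophage RNA did not match in number. Cardiomyocyte-like nuclei held 6.92, 6.46, 9.19 and 8.42 CPM in the running infarct, sedentary infarct, running and sedentary libraries. Their 140 Folr2 UMIs were 19.5 times the 7.18 that the F13a1 count there would bring. The same ratio was 1.07 for Mrc1, 1.24 for Cd163 and 0.921 for Vsig4, so these 3 receptor genes were there in the proportion of macrophage RNA. Lyve1, at 9.08, and Cbr2, at 2.48, stood above it too, as did Retnla, at 17.5 from 8 UMIs. Folr2 and F13a1 overlap antisense genes and Mrc1 contains a microRNA gene in the GENCODE mouse annotation. How strand entered the counting is not given in the sources used here, so reads of such neighbours cannot be told apart from those of the member.

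Over 35 points of class and library, from 11 classes, Lyve1 differed in pattern from the other members. Its Pearson correlation on log2(CPM + 1) was 0.74 with Mrc1, which shares the lymphatic signal, and 0.28 to 0.50 with the other 6. Cd163, F13a1, Vsig4 and Cbr2 correlated with each other at 0.83 to 0.88. The genes most like Lyve1 were Prkag2 at 0.85, Fgd6 at 0.79, Paqr3 at 0.77, Mtmr12 at 0.76 and Usp24 at 0.76. Those most like the other 6 measured members, by the mean correlation, were C5ar1 and Ifi202b at 0.86 and Lilra5, Rbpj and Siglec1 at 0.85. Rbpj was also among the macrophage markers used to name the class. The points share libraries and depth, and these values are descriptions.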

How the data were processed

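The authors deposited filtered count matrices of UMIs per gene and barcode, 1 per library, made with Cell Ranger 7.1 on GRCm39, per the submitters' processing notes. Whether introns were counted, and how strand was handled, is not given in the sources used here. The members, marker lists and gene lists were chosen with earlier results of these data known. Nuclei needed 300 genes or more, with no more than 20% of UMIs from mitochondrial genes. Scrublet scores (scanpy 1.11.5, Python 3.11.15) were computed per library and the top 0.8% per 1000 barcodes were removed as doublets, 192, 82, 301 and 228 nuclei of the running infarct, sedentary infarct, running and sedentary libraries. The automatic threshold called 1630, 0, 0 and 0 and was not used. Of 19760 distinct barcodes, 46 occurred in more than 1 library. Counts were scaled to 10000 and the 8 members and mitochondrial genes were left out of 3000 variable genes (2987 used). Clustering used 40 components, 15 neighbours and Leiden resolution 1 (igraph 0.11.9), and clusters were named from 160 markers of 17 cell types. Sub-clusters used 1990 genes, 20 components and resolution 0.5. UMIs were summed per class and library. Each group is 1 library, so there is no test: a gene was called at 1.5-fold with at least 100 UMIs over both libraries. Exact Poisson, conditional binomial and Clopper-Pearson 95% intervals (scipy 1.17.1) cover counting error only, with 3 UMIs as the limit of a count of 0. Of other lists, genes were named whose interval lay wholly beyond 1.5-fold (up to 4 a list and comparison, by the bound farthest from even), otherwise the 2 with the most UMIs, and not all are printed; some genes are not reported here. Likeness used classes with at least 50 nuclei in a library and genes with at least 200 UMIs, and names the 5 genes of highest correlation. The steps were checked on simulated counts. Alternatives numbered 15 planned and 3 added after seeing the data.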

Additional observations from a re-analysis of the deposited data

Results flagged for a closer look

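Mrc1 in the Timd4-led sub-cluster was marked because infarct moved it in opposite directions in runners and in sedentary mice. In runners its log2 ratio was 0.32, with 3304 CPM in the running infarct and 2640 CPM in the running library, a ratio of 1.25 (1.14 to 1.37). In sedentary mice it was -0.17, with 2577 CPM in the sedentary infarct and 2902 CPM in the sedentary library, a ratio of 0.888 (0.801 to 0.984). With 1 library a group the difference was not tested.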

How the results depend on the processing

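No paired analysis was possible because each group is 1 library with no replicate number. The Lyve1 log2 ratio kept its sign in both infarct comparisons and between the infarct libraries under the 14 alternatives run, from -2.67 to -1.81 (running infarct over running), -2.35 to -0.80 (sedentary infarct over sedentary) and -1.20 to -0.29 (running infarct over sedentary infarct). Counts below are of members at least 1.5-fold lower unless stated, and the shares over all genes are given above for the main settings only. At 500 UMIs only Cd163, Mrc1 and F13a1 were measured in each comparison, so counts there are out of these genes. The causes of these changes were not tested. For running infarct over running the count was 3 with at most 5% mitochondrial UMIs, in Y-positive or Y-negative nuclei or at 2-fold, and 2 at 500 UMIs. With at most 5% mitochondrial UMIs, Vsig4 turned to 0.049 there. For sedentary infarct over sedentary the count was 1 with each library clustered alone, 2 in Y-positive nuclei and 3 at 500 UMIs or at 2-fold. Lyve1 was then -0.84 and -0.80 for the first pair of settings, and with libraries clustered alone Mrc1, F13a1, Folr2 and Cbr2 turned to 0.13, 0.30, 0.35 and 0.18. For running over sedentary the count was 1 with at most 5% mitochondrial UMIs, at Leiden resolution 0.5, with every nucleus weighed the same or at 20 UMIs. With each library clustered alone 4 members were higher there, Lyve1 at 0.63, Mrc1 at 0.64, F13a1 at 0.67 and Vsig4 at 0.74, and Cbr2 turned to 0.42 without passing 1.5-fold. Mrc1 there turned to 0.082 in Y-positive nuclei, and F13a1 to 0.041 with nuclei weighed the same. For running infarct over sedentary infarct the count was 5 with all deposited barcodes, with doublets kept or at resolution 2, 1 in Y-positive or Y-negative nuclei or at 500 UMIs, and 0 at 2-fold, and Mrc1 turned to -0.067 with nuclei weighed the same. The log2 lymphatic over macrophage ratio of Lyve1, 1.37 in the sedentary infarct, 0.29 in the running and 0.74 in the sedentary library, was 1.96 in the sedentary infarct library with nuclei weighed the same, -0.21 in the running library with at most 5% mitochondrial UMIs and 1.64 in the sedentary library clustered alone. The share of nuclei with a Lyve1 UMI was 7.06, 15.2, 35.7 and 38.4% unthinned for the running infarct, sedentary infarct, running and sedentary libraries, and 11.1% in Y-positive sedentary infarct nuclei. The macrophage-like share was 15.0% (running infarct) and 4.16% (running) with at most 5% mitochondrial UMIs, and 5.01% with the sedentary library clustered alone. The other 3 alternatives were chosen after seeing the data. With the high-depth cluster counted as macrophage-like, Lyve1 was -2.35 (sedentary infarct over sedentary) and -0.29 (running infarct over sedentary infarct). The count was then 1 for running over sedentary and 0 between the infarct libraries. The log2 lymphatic over macrophage ratio of Lyve1 was 3.28, 3.07, 1.17 and 1.51 in the running infarct, sedentary infarct, running and sedentary libraries. The Lyve1 share in the running library was 13.5%, and the macrophage-like share 20.2, 14.3, 6.10 and 4.89%. Per macrophage marker UMI, Lyve1 was -1.81 (running infarct over running), the sedentary infarct over sedentary count was 2, and Mrc1 turned to 0.021 (running over sedentary) and -0.044 (running infarct over sedentary infarct). Without the sub-cluster of highest doublet score the counts were 1 (running over sedentary) and 5 (running infarct over sedentary infarct), and the running infarct macrophage-like share 12.8%. Lyve1 rests on 66 to 121 UMIs a library in macrophage-like nuclei, which limits its precision.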
